A study of Mus musculus with 2 samples.

Results

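The genes described here encode the membrane fusion machinery of the cell: the SNARE proteins (syntaxins, VAMPs, the SNAP-25 family and their Golgi relatives), the proteins that bind syntaxins, and NSF with its SNAP adaptors, which take spent SNARE complexes apart. They were chosen by symbol alone, from a fixed pattern of gene names applied to protein-coding genes of GENCODE release M21. The pattern matched 48 genes, of which 46 were among the 38087 gene identifiers of each deposited table; Vamp7 and Vamp9 were not analysed here. RNA came from C57BL/6 mouse stomach cells that had been sorted as parietal cells, which secrete gastric acid. One group was fed a high fat diet (HFD) and the other was the control, with 1 library per group. The sources used here do not give what the diets held, how long they were fed, the age of the mice, how many were pooled, or the marker by which cells were sorted. With 1 library per group there was no replicate check and no test, and every difference below is one between these 2 libraries.

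Membrane fusion in cells is driven by SNARE proteins that pair across a vesicle and its target membrane. A complex is built from a Qa, a Qb and a Qc helix on one membrane and an R helix on the other, and a SNAP-25 family protein can supply both the Qb and the Qc helix. Proteins of the Munc18 type, such as Stxbp2 and Stxbp3, hold and guide syntaxins, and the ATPase NSF recycles the complexes with its adaptors alpha- and gamma-SNAP. In the parietal cell, stimulation makes tubulovesicles that carry the proton pump fuse with the apical canaliculus, a step to which syntaxin 3, VAMP2 and SNAP-25 family proteins have been linked.

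Levels are given in RPKM, reads per kilobase of gene and per M reads of library. Genes at or below 1 RPKM are listed as 0, so a 0 does not mean absence. Values are given with the HFD library first unless stated otherwise. The estimated depth was 25.49 M reads with HFD and 9.84 M in the control, so low control values are the less precise. Each ratio has an approximate 95% interval from estimated reads, which covers counting error only and not variation between mice. The 18 listed parietal cell markers, with Atp4b at 5639 and 4375 RPKM, summed to 13901 and 10951 RPKM, but the 5 chief cell markers summed to 48583 and 106833 RPKM and the pit cell markers to 36516 and 14910 RPKM. Pgc, with 45624 and 102292 RPKM, carried the chief cell sums. Among the 18 parietal cell markers, 14 were higher in the HFD library and 4 lower. Of the 5 chief cell markers 4 were lower in the HFD library and 1 higher. Of the 10 pit cell markers 7 were higher and 3 lower. Gkn1 (21736 and 5021 RPKM), Gkn2 (8091 and 3406 RPKM) and Capn9 had ratios of 4.33, 2.38 and 4.03. The pit cell markers Tff1 and Psca had ratios of 0.986 and 1.02, and Gkn3 had one of 0.346. Fewer cells of a type and less RNA per cell cannot be told apart in such bulk samples. Other marker lists differed as well: 16 of 19 listed gastric endocrine markers, 9 of 9 smooth muscle markers and 10 of 10 fibroblast markers were lower in the HFD library, as were 12 of 12 pancreatic acinar markers (1831 against 13795 RPKM in sum), whereas 8 of 9 listed leukocyte markers were higher. Clps, with 1790 and 12989 RPKM, carried the acinar sums. Also lower were 10 of 11 proliferating cell markers, with 1 higher, and 3 of 3 listed neck cell markers. The part of these cell types in the values of the fusion genes was not tested.

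Most of the fusion genes were expressed at low to middle levels, and most stood at similar levels in both libraries. Of the 46 genes, 41 were listed in at least 1 library and 35 in both. The 5 genes listed at 0 in both included Stx11, Vamp5, Napb and Stxbp5l. Of the 35, 23 stood at 5 RPKM or more in both libraries and 8 stayed below 5 RPKM in both. The order of the 35 levels was much the same in the libraries (Spearman rho 0.90 across genes, a description, since both libraries share gene lengths). Shorter genes stood higher on this per-length scale, with a rho between exon length and level of -0.62 with HFD and -0.58 in the control.

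**Figure D1:**
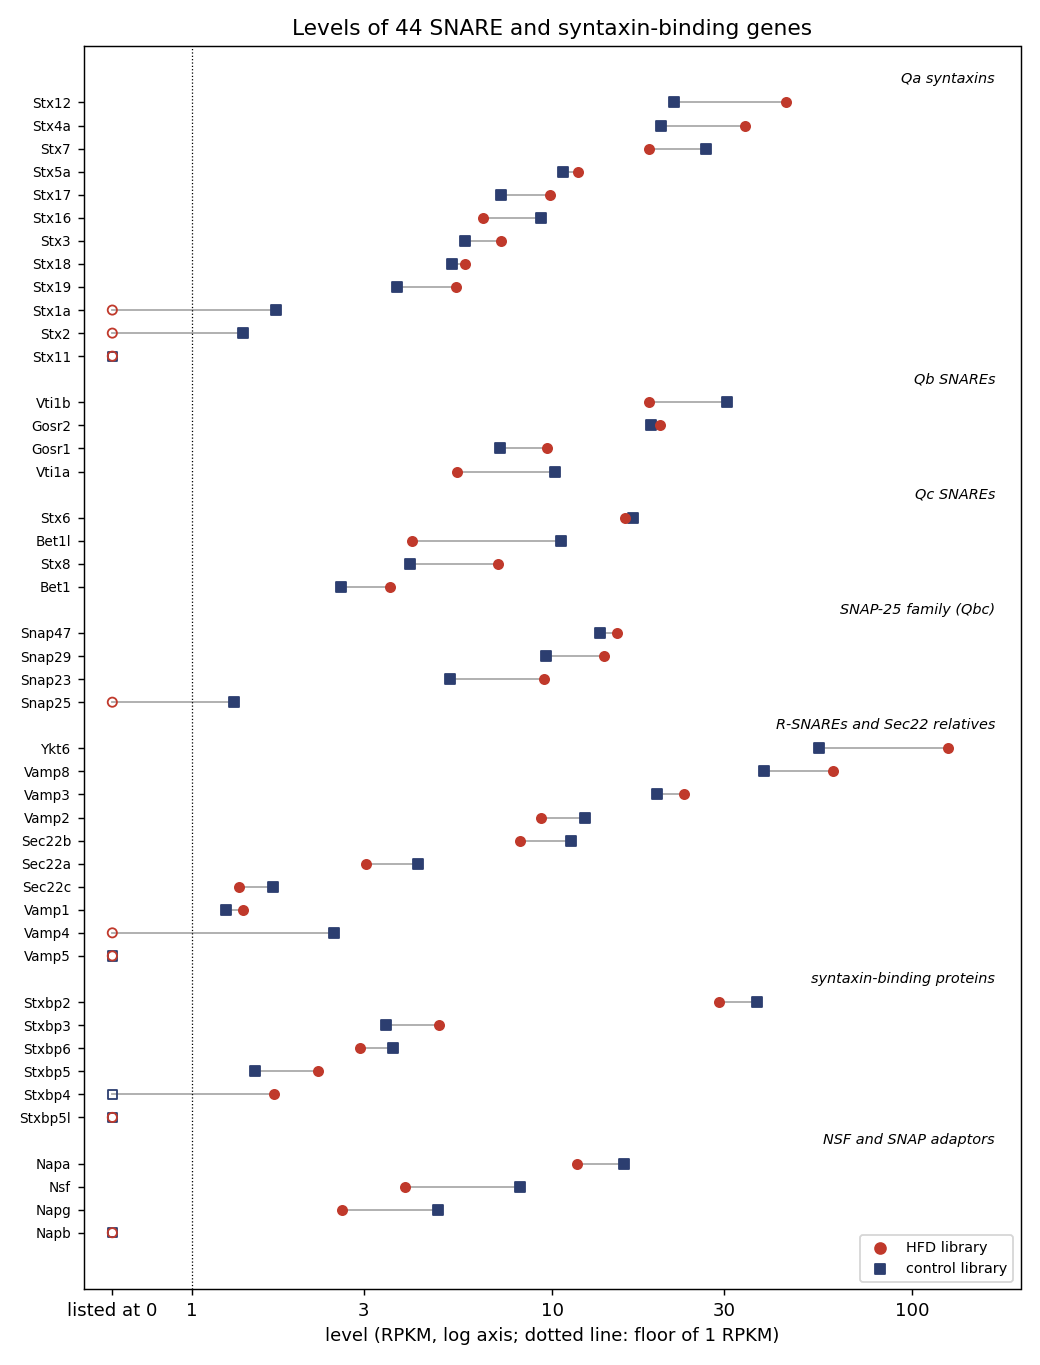
Level of each of 44 fusion genes in the HFD library (circles) and the control library (squares), in RPKM on a log axis, grouped by role; open symbols are genes listed at 0, drawn left of the dotted floor of 1 RPKM. Ykt6 and Vamp8 lead in both libraries, and 4 of the genes drawn have an open symbol in the HFD library only.

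The levels were led in both libraries by the R-SNARE gene Ykt6, which encodes a lipid-anchored SNARE of the Golgi and of autophagosomes. Ykt6 stood at 125.9 RPKM with HFD (counting interval 123.4 to 128.5) and at 55.2 RPKM in the control (52.5 to 57.9), above 98.3% and 95.1% of the listed coding genes. Vamp8, the R-SNARE of late endosomes and of several secretory granules, was second in both, at 60.4 and 38.8 RPKM. The following ranks differed between the libraries. In the HFD library they were taken by Stx12, a syntaxin of recycling endosomes, at 44.6 RPKM, Stx4a, a plasma membrane syntaxin, at 34.4 RPKM, Stxbp2 (Munc18-2) at 29.1 RPKM and Vamp3 (cellubrevin) at 23.3 RPKM. In the control library they were taken by Stxbp2 at 37.0 RPKM, Vti1b at 30.7, Stx7 at 26.7, Stx12 at 21.8 and Stx4a at 20.1 RPKM. The counting intervals of the first 6 genes did not overlap in the HFD library, whereas those of Vamp8 and Stxbp2 overlapped in the control library (36.2 to 41.4 and 35.2 to 38.9 RPKM), as did those of Vti1b and Stx7, of Stx12 and Stx4a, and of Stx4a and Vamp3.

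On the log2(RPKM + 1) scale, 3 of the 41 listed genes (7.32%) were more than 2-fold higher in the HFD library, against 8.02% of the 11976 listed protein-coding genes. More than 2-fold lower were 6 of 41 (14.6%), against 20.1% of coding genes. Among all 16037 genes listed in either library these shares were 12.5% and 23.9%. The share of fusion genes that were higher differed from that of coding genes by less than 1 gene, and its side depends on the filter: 2 of 27 against 5.76% of coding genes at a minimum of 5 RPKM. The median log2 ratio was 0.08, with 21 genes higher and 20 lower, beside -0.11 for coding genes. Of the 35 genes listed in both libraries, 24 (68.6%) lay within 1.5-fold, beside 57% of coding genes. A ratio above 1 was found for 20 of the 35, and for 47.8% of coding genes. The counting interval lay wholly above a ratio of 1 for 16 of the 35 (45.7%; coding genes 37.8%) and wholly below it for 13 (37.1%; coding genes 42.1%). Whole intervals beyond 2-fold were found for Ykt6 on the higher side (1 of 35, 2.86%; coding genes 4.08%) and for Bet1l on the lower side (1 of 35, 2.86%; coding genes 8.73%).

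**Figure D2:**
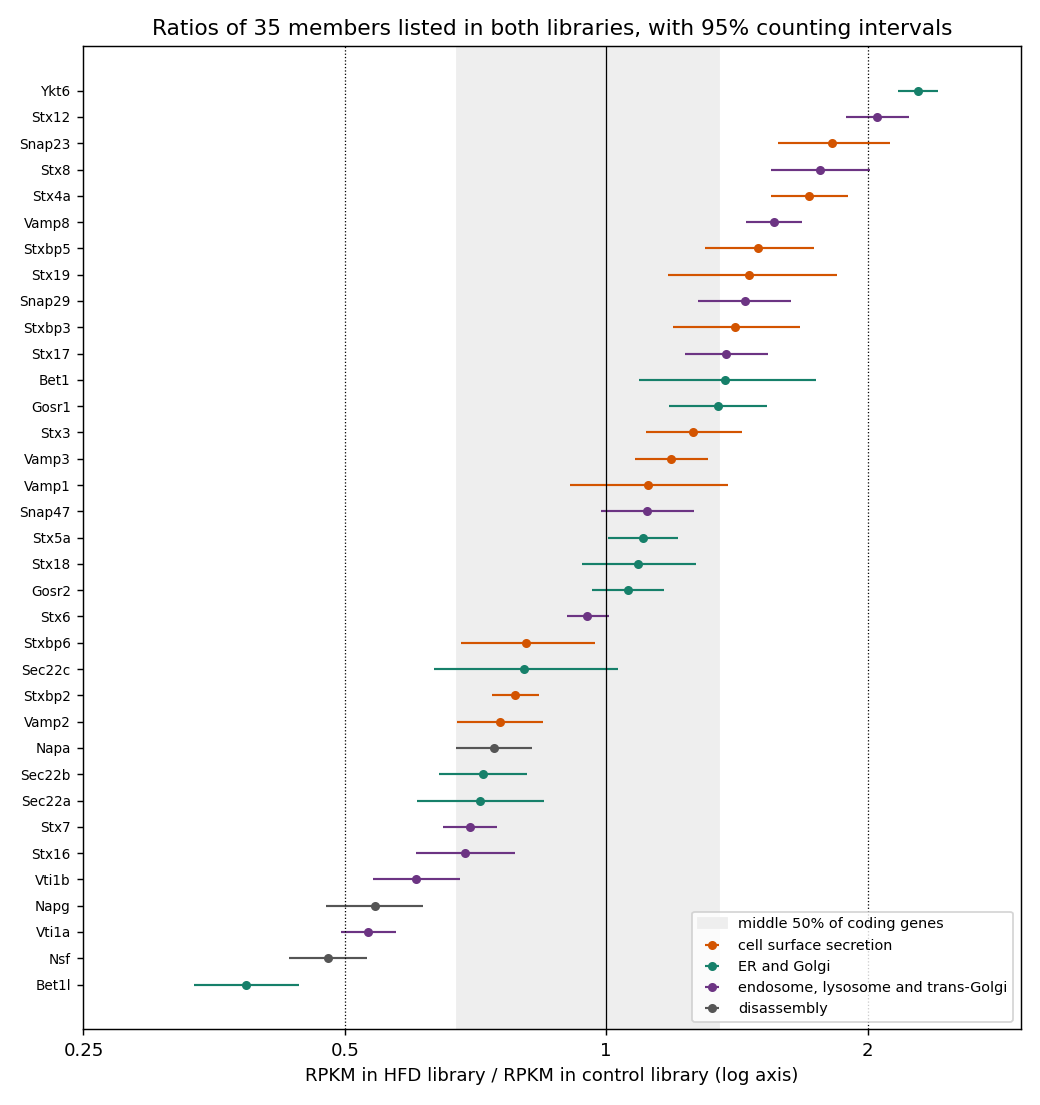
Ratio of the RPKM in the HFD library to that in the control library for the 35 genes listed in both, on a log axis, with 95% counting intervals and colours for the site of fusion; the grey band holds the middle 50% of coding genes and dotted lines mark 2-fold. Ykt6 and Stx12 lie past 2-fold on the right, Nsf and Bet1l past it on the left.

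The direction of many of these ratios depended on how the libraries were scaled. HFD values were rescaled so that totals matched with the 20 most abundant genes left out. Every plain log2 ratio of genes listed in both libraries then shifted by -0.61, and with matched totals of coding genes by 0.29. On the log2(RPKM + 1) scale the shift is smaller and differs between genes. On that scale the median of coding genes moved from -0.11 to -0.61 and to 0.14 under these settings. That of the fusion genes moved from 0.08 to -0.49 and to 0.27. Under all 4 rescalings 6 genes stayed above 1: Ykt6 (1.5 to 2.80), Stx12 (1.35 to 2.51), Snap23 (1.2 to 2.23), Stx8 (1.16 to 2.16), Stx4a (1.12 to 2.10) and Vamp8 (1.02 to 1.91). Another 14 stayed below 1, among them Bet1l (0.253 to 0.471), Nsf (0.314 to 0.585), Vti1a (0.350 to 0.652) and Napg (0.355 to 0.663). The remaining 15, Stx3, Vamp3, Stx17 and Snap29 among them, changed side with the scaling, so their direction depends on it; the directions that follow are those of the values as deposited.

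**Figure D3:**
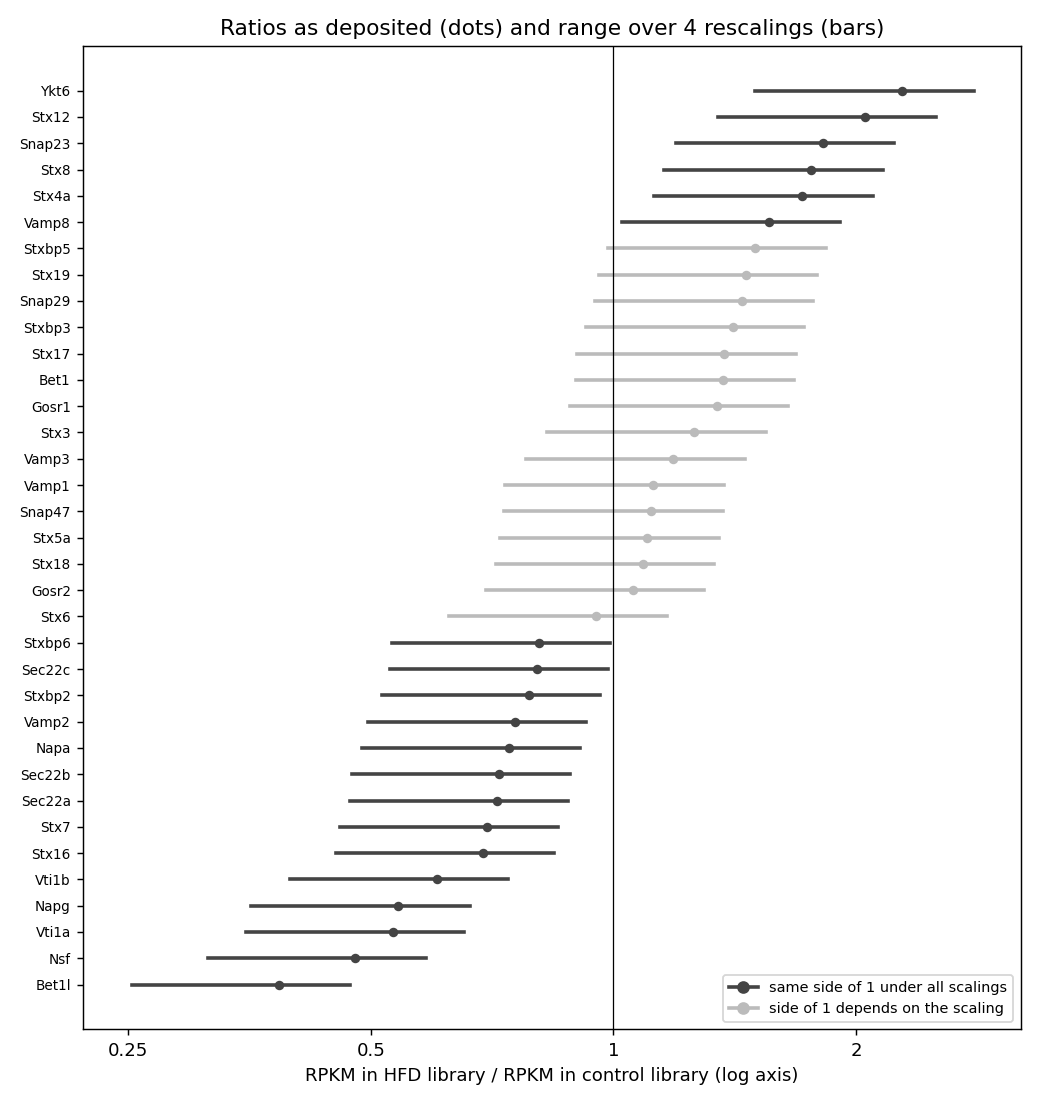
Ratio of HFD to control RPKM for the 35 genes listed in both libraries on a log axis, as deposited (dots) and over the 4 rescalings of the HFD values (bars). Dark bars mark the 20 genes that stay on one side of 1, of which 6 lie above 1 and 14 below it; pale bars cross 1.

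The promoters of the fusion genes were compared by sequence. RefSeq start sites on GRCm38.p6 were matched for 40 of the 46 genes, and the 250 bases before each start were searched on both strands for 8 motifs. A motif that the factor NRF1 is known to bind, searched as GCGC, any base, then TGCGC on either strand, occurred in 8 of 40 fusion gene promoters (20%), against 9.45% of 9390 listed protein-coding genes and 4.23% of all 27025 genes in the table. GC boxes (GGGCGG; 65.0% against 64.4% of listed coding genes) and CCAAT boxes (42.5% against 40.4%) were found at about the same share, and the CACGTG E-box was found in 15.0% against 9.90%. The remaining 4 were the TATA box TATAAA (5.0% against 7.76%), the cyclic AMP response element TGACGTCA (5.0% against 3.02%), the ETS core CCGGAAG (7.5% against 15.9%) and the YY1 core AAGATGGC (0 of 40 promoters against 2.39%). The 250 bases were 61.2% G and C in the median fusion gene and 60.0% in listed coding genes. A match is a description of the letters and not a binding site. The 8 windows of 30 bases are shown 5′ to 3′ on the gene's strand, with the match in capitals, because the genes with the 3 highest ratios are among them.
Ykt6, chr11:5955692-5955721, plus strand: ctacccgtccGCGCACGCGCgtaccctgcc
Stx12, chr4:132884505-132884534, minus strand: ggcggagcgcGCGCATGCGCaccgcgatgg
Snap23, chr2:120567640-120567669, plus strand: ccctgcgactGCGCAGGCGCacaagtcctc
Stxbp5, chr10:9901220-9901249, minus strand: gggcggcggcGCGCATGCGCaccgggcagc
Snap29, chr16:17405856-17405885, plus strand: ggtccttactGCGCAGGCGCagaggcggcc
Snap47, chr11:59450043-59450072, minus strand: cccagggtgtGCGCGTGCGCgcctacgcgg
Nsf, chr11:103954062-103954091, minus strand: cggcggctgcGCGCCTGCGCgagggccggc
Stx2, chr5:129008573-129008602, minus strand: gggggtggggcagGCGCAAGCGCagagagc
The match of Ykt6 ended 46 bases before the RefSeq start and that of Stx12 56 bases before it. For Ykt6, Stx12, Snap47, Stx2, Snap29 and Stxbp5 the RefSeq start lies downstream of the GENCODE gene start. The window of Snap47 thus lies wholly within the GENCODE gene and that of Ykt6 nearly so. The windows of Stx12 and Stx2 overlap their GENCODE genes by a few bases, and those of Snap29 and Stxbp5 lie outside theirs. Of the 8 genes, 6 stood higher with HFD as deposited, with ratios from 1.11 for Snap47 to 2.28 for Ykt6. Of the 6, Stxbp5, Snap29 and Snap47 change side under rescaling. Nsf, with a ratio of 0.478, and Stx2, listed in the control library only, also held a match. Of all 41 listed fusion genes 21 were higher, and 47.8% of coding genes listed in both were above 1. The windows were shown because of high ratios, so the count of 6 is a description only. A link between motif and level was not tested.

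The R-SNAREs, which sit mostly on vesicles, and the Sec22 relatives together summed to 232.9 against 146.8 RPKM. Ykt6 made up 54.1% and 37.6% of this sum. Of the 9 listed, 4 were higher and 5 lower with HFD, with a median log2 ratio of -0.19, so the larger sum came from few genes. Ykt6 (ENSMUSG00000002741; chromosome 11, 5955693 to 5967780, plus strand, GRCm38) was 2.28 times as high with HFD (interval 2.17 to 2.41). Vamp8 was 1.56 times as high (1.45 to 1.68), and Vamp3 stood at 23.3 against 19.6 RPKM, a ratio of 1.19 (1.08 to 1.31). Vamp2, the R-SNARE of regulated exocytosis, stood at 9.32 against 12.4 RPKM, a ratio of 0.754 (0.673 to 0.845). Per length, Vamp2 thus lay below Vamp8 and Vamp3 in both libraries. Sec22b, which acts between endoplasmic reticulum and Golgi, stood at 8.14 against 11.3 RPKM, with a ratio of 0.721, and its relatives Sec22a (3.04 against 4.24 RPKM) and Sec22c (1.35 against 1.68 RPKM) were also lower. Vamp1, a near relative of Vamp2, was close to the floor in both (1.39 and 1.24 RPKM). Vamp4, of the trans-Golgi network, was listed in the control library only, at 2.47 RPKM.

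The Qa syntaxins summed to 144.1 against 113.6 RPKM, with 7 of 11 listed genes higher with HFD and 4 lower, though 5 of the 7 change side under rescaling (Stx3, Stx5a, Stx17, Stx18 and Stx19). Stx12 (ENSMUSG00000028879; chromosome 4, 132853501 to 132884509, minus strand) had the largest ratio of the class, 2.05 (1.89 to 2.23), just past 2-fold with and without the pseudocount. Stx4a followed with 34.4 against 20.1 RPKM, a ratio of 1.71 (1.55 to 1.90). Stx3, the apical syntaxin of epithelial cells, was much less abundant than Stx4a, at 7.23 against 5.74 RPKM, a ratio of 1.26 (1.11 to 1.43). The epithelial Stx19 stood at 5.41 against 3.71 RPKM, and Stx17, of autophagosomes, at 9.88 against 7.20 RPKM. Stx5a of the Golgi (11.8 against 10.7 RPKM) and Stx18 of the endoplasmic reticulum (5.74 against 5.28 RPKM) were close to equal. On the lower side were Stx7 of late endosomes at 18.6 against 26.7 RPKM (ratio 0.696) and Stx16 of the trans-Golgi network at 6.41 against 9.31 RPKM (ratio 0.688). Stx1a and Stx2 were listed in the control library only, at 1.71 and 1.38 RPKM.

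The SNAP-25 family had 3 genes listed in both libraries, each higher with HFD as deposited, of which Snap29 and Snap47 change side under rescaling. Snap23, the widely expressed partner of plasma membrane syntaxins, stood at 9.47 against 5.20 RPKM, a ratio of 1.82 (1.58 to 2.12). Snap29, which acts in autophagosome and endosome fusion, stood at 13.9 against 9.64 RPKM (ratio 1.44), and Snap47 at 15.1 against 13.6 RPKM (1.11, interval 0.987 to 1.26). Snap25 itself, the neuronal and endocrine form, was listed in the control library only, at 1.31 RPKM. Snap23 was thus the more abundant plasma membrane form of the pair in both libraries.

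Qb and Qc SNAREs held 3 of the 5 lowest ratios, those of Bet1l, Vti1a and Vti1b, and all 3 stayed below 1 under each rescaling. Bet1l (GS15, ENSMUSG00000025484; chromosome 7, 140853394 to 140857577, minus strand), a Qc SNARE of the Golgi, stood at 4.07 against 10.6 RPKM, 2.60 times lower (interval 2.26 to 2.99). Of its exon bases 19.0% overlap other genes, the opposite-strand Ric8a (10.2 and 10.6 RPKM) and the same-strand Gm45785. The sources used here do not say how reads of overlapping genes were counted or whether the counting used strand. The same doubt holds for Vti1b, 17.7% of whose exon bases overlap Arg2 (4.40 RPKM with HFD, listed at 0 in the control). It also holds for Snap47 (11.6%, with Jmjd4) and for Stx18 (32.3%, with Gm42858 and with Nsg1, which was listed at 0 in both). Vti1a stood at 5.43 against 10.2 RPKM, 1.88 times lower, and Vti1b at 18.5 against 30.7 RPKM, 1.66 times lower. The other Qb genes, Gosr1 (9.66 against 7.18 RPKM) and Gosr2 (19.9 against 18.8 RPKM), both Golgi SNAREs, were on the higher side as deposited and change side under rescaling. Of the Qc genes, Stx8 stood at 7.08 against 4.02 RPKM, a ratio of 1.76 (1.55 to 2.01), Bet1 at 3.55 against 2.59 RPKM, and Stx6 at 15.9 against 16.7 RPKM, a ratio of 0.951 whose interval spanned 1.

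All 3 listed genes of the disassembly machinery were lower in the HFD library, as deposited and under each rescaling. Nsf, the ATPase, stood at 3.89 against 8.14 RPKM, 2.09 times lower (interval 1.89 to 2.32) by the plain ratio, though not past 2-fold on the log2(RPKM + 1) scale. Napg, gamma-SNAP, stood at 2.61 against 4.83 RPKM, 1.85 times lower, and Napa, alpha-SNAP, at 11.7 against 15.8 RPKM, 1.35 times lower. Their summed level was 18.2 against 28.8 RPKM, and their median log2 ratio of -0.69 was the lowest of the 7 role classes. With 3 genes this is a description and sets the class apart from no other.

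The syntaxin-binding proteins were dominated by Stxbp2, which made up 71.3% of their summed level with HFD and 75.9% in the control. Stxbp2 stood at 29.1 against 37.0 RPKM, a ratio of 0.785 (0.738 to 0.836). Stxbp3, the usual partner of syntaxin 4, stood at 4.86 against 3.45 RPKM, and Stxbp5 (tomosyn) at 2.23 against 1.49 RPKM, with ratios of 1.41 and 1.5 that fall below 1 under one rescaling. A processed pseudogene of Stxbp3 was listed at higher values than the gene itself, so the value of Stxbp3 is uncertain. Stxbp6 (amisyn) stood at 2.92 against 3.62 RPKM. Stxbp4, a syntaxin 4 binding protein, was the single gene listed in the HFD library only, at 1.69 RPKM (2.44% of the 41 genes; coding genes 4.07%, all genes 6.19%).

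Grouped by the complexes these proteins are known to form, partners often differed in direction. This grouping was made after the values were seen. The intra-Golgi complex of Stx5a, Gosr1, Bet1l and Ykt6 held both extremes of the whole set, with ratios of 1.10, 1.34, 0.385 and 2.28. The late endosome complex was split, with Stx8 (1.76) and Vamp8 (1.56) higher and Stx7 (0.696) and Vti1b (0.604) lower. Of the trans-Golgi network complex, all 4 genes were lower: Stx6 (0.951, which changes side under rescaling), Stx16 (0.688), Vti1a (0.532) and Vamp4, which was listed at 0 in the HFD library. The autophagosome complex of Stx17, Snap29 and Vamp8 had 3 of 3 genes higher, with ratios of 1.37 to 1.56, but Stx17 and Snap29 change side under rescaling. Between endoplasmic reticulum and Golgi, the complex of Stx5a, Gosr2, Bet1 and Sec22b had 3 genes higher and 1 lower (0.721 to 1.37). The retrograde complex of Stx18, Bnip1, Use1 and Sec22b also had 3 higher and 1 lower (0.721 to 1.28). Sec22b was the lower gene in both, Bnip1 had a ratio of 1.002, and Stx5a, Gosr2, Bet1 and Stx18 change side under rescaling. By site, the median log2 ratio was -0.69 for the 3 disassembly genes, 0.16 for 16 listed cell surface genes, 0.09 for 10 genes of the endoplasmic reticulum and Golgi and 0.04 for 12 genes of endosome, lysosome and trans-Golgi.

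**Figure D4:**
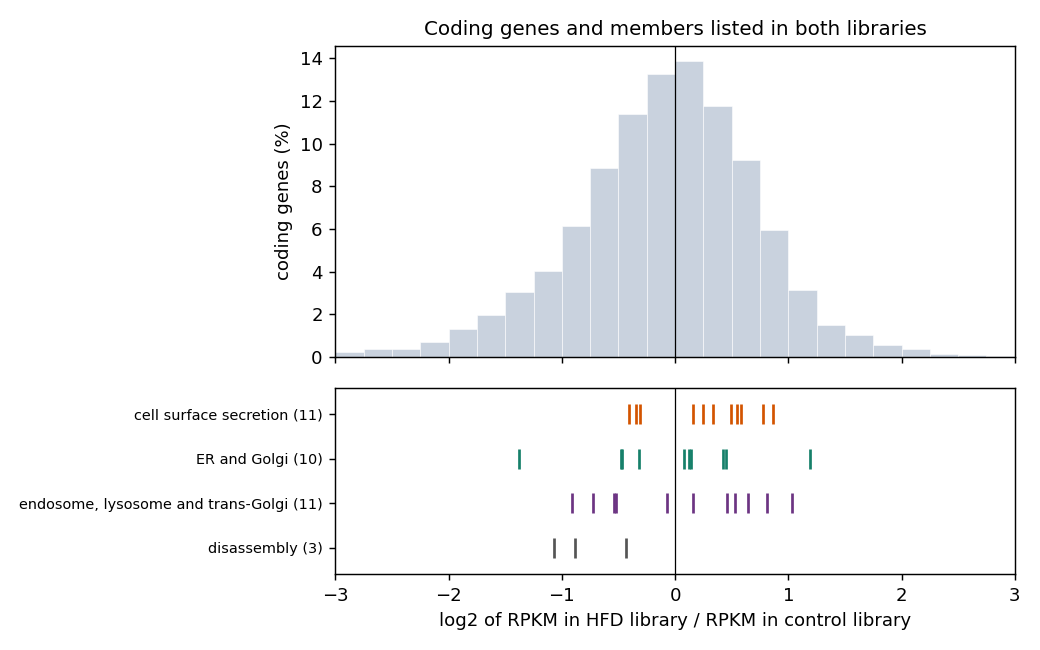
Upper panel, percentage of the 9997 protein-coding genes listed in both libraries in bins of the log2 ratio of HFD to control RPKM, shown from -3 to 3. Lower panel, each fusion gene listed in both libraries as a tick, by site of fusion with the number of genes; ticks of the first 3 sites fall on both sides of 0, and the 3 disassembly genes lie below it.

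In all, 5 genes were listed in the control library only, 12.2% of the 41 listed genes beside 12.4% of coding genes and 16.2% of all genes. Among them were Stx1a (1.71 RPKM), Stx2 (1.38), Vamp4 (2.47) and Snap25 (1.31 RPKM). All passed 2-fold on the log2(RPKM + 1) scale by construction, since a listed value lies above 1 RPKM. These 4 rested on an estimated 45 to 111 reads in the control library, and a value of 1 RPKM would have held 68 to 173 reads for these genes in the HFD library. Stx1a and Snap25 are the syntaxin and SNAP-25 forms of neurons and endocrine cells. Beside them, the 22 gastric endocrine markers summed to 1233 against 8367 RPKM, with 14 of 19 listed markers more than 2-fold lower, and Scg5, Pcsk1, Insm1, Rfx6 and Tph1 listed at 0 in the HFD library. In the same list Syp (6.21 against 3.66 RPKM) and Gast (118.5 against 102.3 RPKM) were higher, and Neurod1 was listed in the HFD library only, at 1.01 RPKM. Of 13 neuronal and glial markers, 12 were listed at 0 in both libraries, and Tubb3 stood at 1.51 and 1.80 RPKM. The part of endocrine cells in the levels of Stx1a and Snap25 was not tested.

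Calcium sensors and priming factors act on SNARE complexes. Of 41 synaptotagmins, complexins, slp proteins and priming factors, 20 were listed at 0 in both libraries, 7 of the other 21 were higher and 14 lower in the HFD library, and the median was -0.38 (coding genes -0.11). More than 2-fold lower were 7 of the 21 (coding genes 20.1%), and 0 were more than 2-fold higher (coding genes 8.02%). Of the 7, Cadps, Rims2, Unc13a, Syt13 and Syt17 were listed in the control library only (coding genes 12.4%), at 1.14 to 4.75 RPKM, and so pass by construction. Cplx2, complexin 2, had the lowest ratio, at 2.81 against 8.54 RPKM. The most abundant was Syt8 at 63.4 against 48.5 RPKM, and Sytl1, a Rab27 effector, had the highest ratio, 1.72 (44.8 against 26.1 RPKM).

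Tethering factors, which hold a vesicle before SNAREs pair, had median log2 ratios of -0.11 for the exocyst and 0.49 for the HOPS and CORVET tethers, beside -0.11 for coding genes, and the ratios of these lists overlapped. The exocyst, which tethers at the plasma membrane, had 4 of 9 genes higher and 5 lower, from Exoc6 (3.76 against 6.60 RPKM) to Exoc7 (38.6 against 24.9 RPKM). The HOPS and CORVET tethers of endosomes had 5 of 7 genes higher, with Vps11 and Vps41 at ratios of 1.5 and 1.49, whereas Vps18 was 4.25 times lower (2.10 against 8.92 RPKM; interval 3.63 to 4.99). Among 31 listed Golgi and TRAPP tethers 12 were higher and 19 lower, with a median of -0.16; the lowest ratio was that of Gorasp1 (4.42 against 12.7 RPKM) and the highest that of Rint1, at 15.6 against 8.61 RPKM. The 7 other SNAREs and Munc18-type genes outside the name pattern stayed within 1.5-fold, from Vps33a at 0.787 to Scfd1 at 1.42.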

How the data were processed

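Total RNA of sorted cells was depleted of ribosomal RNA and sequenced on an Ion platform, per the labels' protocols. The deposited tables hold log2 of RPKM, with no pseudocount; a 0 stands for every gene of 1 RPKM or less. This scale was read from the values: 2 to the power of the value, times exon length, fell within 0.005 of whole multiples of one step in 49.4% of 178 (HFD) and 34.6% of 702 (control) low single-exon genes. Fusion genes have several exons; of low multi-exon genes 36 of 200 were whole in the control (18.0%) and 0 of 4 with HFD, so their estimated reads are less sure. The step gave the depth, and reads were estimated as RPKM times exon length (union of exons) times depth. Bedtools 2.25.0 and mm10 are named in the submitters' processing notes; no source used here gives the aligner, the counting rule or the annotation release. Symbols came from GENCODE M21, in which 36308 identifiers matched and 1779 did not.

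Ratios used log2(RPKM + 1), with a 0 entered as 0, or plain RPKM for genes listed in both libraries, with exact conditional binomial intervals (scipy 1.17.1). No count model was run, since the files hold no counts, and none could have been tested with 1 library per group. Genes named were the fusion genes, of which 2 are counted but not reported here by name, and, of each other list, the most abundant gene and the genes of lowest and highest ratio with 50 or more reads; others were chosen after their values were seen. The genes and lists were chosen with earlier results of these data known. Other pseudocounts, filters, entries for 0 and scalings were tried. Calculations were tested on simulated data. The simulated reads were drawn with the same estimated depths and exon lengths, so those estimates and variation between mice were not checked.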

Additional observations from a re-analysis of the deposited data

How the results depend on the processing

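Of 41 listed fusion genes, 3 were more than 2-fold higher in the HFD library; this became 1 when totals were matched with the 20 most abundant genes left out and 5 when scaled to the total of coding genes. The 6 more than 2-fold lower became 11 when scaled without the 20 most abundant genes, 1 at a minimum of 5 RPKM, 2 with a 0 entered as 1 RPKM and 2 among genes listed in both libraries with no pseudocount. In the last 3 settings the 5 genes listed at 0 in the HFD library are removed or lowered by construction. The median of 0.08 fell to -0.49 without the 20 most abundant genes; under the other settings it lay between 0.00 and 0.27. No replicate could be left out, and no paired analysis was possible because each group has 1 library. Intervals rest on exon lengths of another annotation release and are approximate.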

Other observations

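Processed pseudogenes under the same name pattern were not among the fusion genes. The pseudogene Stxbp3-ps stood at 25 RPKM with HFD and 7.52 RPKM in the control, a ratio of 3.32 (counting interval 2.52 to 4.47), above Stxbp3 itself at 4.86 and 3.45 RPKM. The pseudogene Vamp7-ps stood at 15.5 and 11.6 RPKM, a ratio of 1.33 (1.03 to 1.75). Reads of a gene and its copy may be mixed, since no source used here gives the counting rule.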
